A study of Mus musculus with 18 samples.

Results

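The genes described here are 6 structured noncoding RNA genes that were picked because their values fell mainly or wholly in one cytoplasmic fraction of mouse spermatogenic cells. They are 7SK, U6atac, RNaseP_nuc, Vault, AC158995.1 and AL807764.1, spelled as in the GENCODE vM1 annotation of the mm9 genome. They are 6 of 16307 annotated genes with a value in at least 1 library, and 6 of the 31 single-exon genes of type snRNA, misc_RNA or rRNA with a value in at least 3 libraries. They were chosen by their FPKM in the 2 fractions, so their difference between fractions is described below without a test. At these gene positions, 4 of the 6 genes had values in one fraction only. RNaseP_nuc and Vault had values in both.

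The 18 libraries held large RNA of adult wild-type C57BL/6 mice, from pachytene spermatocytes (germ cells in meiosis), round spermatids or elongating spermatids. The cells were purified by sedimentation, and their cytoplasm was split on a sucrose gradient into ribonucleoprotein particles (RNPs, the light fractions) and polysomes (the heavy fractions, where several ribosomes sit on one mRNA), with 3 libraries for each of the 6 groups. Cycloheximide, which arrests ribosomes on mRNA, was present during cell purification, testes of several mice were pooled for each purification, and the elongating spermatids were the least pure of the 3 cell types by the study's own account. No library is tied to a mouse or to a purification, so a p-value here measures only the spread between libraries, which may be technical. The libraries are bulk samples, in which fewer cells of a type and less RNA per cell cannot be told apart.

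Levels are FPKM, fragments mapped to an assembled piece of RNA, scaled to its length and to the mapped reads of the library, as given by Cufflinks in 1 assembly for each library. Cufflinks lists no fragment where reads are too few, and it also skips a locus whose reads exceed a set maximum. A gene that is not listed in a library therefore has no level there, and cannot be read as low. Which of these applied to a given library was not tested. Read counts are not part of the files, so the depth behind each value is unknown. The coverage per unit of FPKM, which grows with depth, ran from 1.20 to 2.26 over the 18 libraries.

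The libraries numbered 2 of the round spermatids stood apart from the others of their groups. The summed FPKM of 13 Sertoli cell genes was 1251 in the RNP library and 2479 in the polysome library, against 42.0 to 146 in the other 4 round libraries. The summed FPKM of 11 elongating spermatid genes was 94.7 and 134 there, against 1557 to 5039 in the same other libraries. For 10 round spermatid genes it was 116 and 126 there, against 448 to 1438 in the same other libraries. These sums were 154 to 886 in pachytene libraries and 1258 to 2079 in elongating polysome libraries. Sums of 9 pachytene spermatocyte genes in polysomes were 4128 to 4683 in pachytene, 2977 to 3711 in round and 3275 to 4000 in elongating cells. In RNPs those sums overlapped between the cell types. In pachytene spermatocytes the Sertoli sums ran from 93.3 to 1495, with 1450 in RNP library 2, 1183 in polysome library 2 and 1495 in polysome library 3. The elongating spermatid sums were 68.5 and 74.8 in the pachytene libraries numbered 2, against 397 to 2827 in the other pachytene libraries. In elongating spermatids the Sertoli sums ran from 22.9 to 53.7. The part of these cells in the results below was not tested. Values without both round libraries numbered 2 are given with the comparisons of cell types, and they keep the pachytene libraries numbered 2.

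7SK is the scaffold of a nuclear particle that holds the elongation factor P-TEFb inactive, and U6atac is the catalytic small nuclear RNA of the minor spliceosome, which removes a rare class of introns. RNaseP_nuc is a name for the RNA subunit of nuclear RNase P, which trims the 5′ leader of tRNA precursors, and Vault RNA is a small RNA of the vault, a large hollow particle in the cytoplasm. RNA polymerase III makes 7SK, the RNase P RNA, the vault RNAs and the U6-type RNAs, and genes of this kind often leave pseudogene copies in mammalian genomes. The genes AC158995.1 and AL807764.1 carry only clone names, and the annotation gives them no function.

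The sequences below are from mm9 and show the genes by their 5′ ends or by the stretch that was assembled. The 7SK gene (chr9:78023110-78023440, minus strand, 331 nt) began with the stretch that holds the first of its GATC motifs. The inhibitor protein HEXIM1 binds GATC letters in the 7SK particle. Whether the printed motif is among those it binds was not tested. The motif GATC stood at bases 13, 42 and 64 of the gene. The first 30 bases of 7SK (chr9:78023411-78023440, minus strand) are printed with GATC in capitals.
7SK: ggatgtgagggcGATCtggctgcgacatct

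The U6atac gene with the high values (chr7:16820087-16820213, minus strand, 127 nt) is 1 of 28 annotated copies of that name. The other listed copy (chr2:27395325-27395450, minus strand) is printed beside it, with the letters AAGGAGA in capitals, the part of U6atac that pairs with the 5′ splice site. Bases 1 to 30 of each are shown (chr7:16820184-16820213 and chr2:27395421-27395450, both minus strand). Over 120 aligned positions they shared 110 bases (91.7%), with 1 mismatch and 9 gaps.
U6atac, chromosome 7: gtgttgtatgaAAGGAGAggttagcactcc
U6atac, chromosome 2: gtgttgtatgaAAGGAGAgaaggttagcac

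The RNaseP_nuc gene (chr8:3803069-3803358, minus strand, 290 nt) is shown beside AC027184.1 (chr14:51427124-51427442, minus strand), a misc_RNA gene 179 bases from Parp2 and the structured RNA gene with the highest mean in RNPs. Capitals mark the 2 of the first 30 bases that differed (chr8:3803329-3803358 and chr14:51427413-51427442, both minus strand). Over 257 aligned positions the genes shared 221 bases (86.0%).
RNaseP_nuc: ggcggaggaagctAatcagcAgggccacgt
AC027184.1: ggcggaggaagctCatcagcGgggccacgt

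AC158995.1 (chr9:70379154-70379472, plus strand, 319 nt) and AL807764.1 (chr4:137507039-137507371, minus strand, 333 nt) are shown by the stretches under their assembled fragments. The next 2 lines give the 30 bases in the middle of each, all in capitals as the part that was assembled (chr9:70379350-70379379, plus strand, and chr4:137507148-137507177, minus strand). The 2 stretches were not aligned with each other.
AC158995.1, bases 197 to 226: TTATAACTAAGTAGCAGTTGAAAGAAACAT
AL807764.1, bases 195 to 224: ACAAGGCCAGAGAGTGGAATGGAGGGCTCA

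The ends of these 2 genes are repeated sequence. Bases 1 to 142 of AL807764.1 had 105714 other alignments in the genome of at least 50 bases and 90% identity, and its bases after 278 had 139355. Its assembled stretch, bases 143 to 278 by the median fragment edges, had 21. In AC158995.1 the ends had 11628 and 128417 such alignments, and its assembled stretch, bases 159 to 266, had 1. Values of both genes thus came mostly from the part of the gene that is repeated least. The fragments cover less of the gene than 50% in most libraries. When only fragments over at least 50% of the gene were counted, polysome minus RNP was 0.00 in pachytene spermatocytes for both genes, 0.00 (AC158995.1) and -1.40 (AL807764.1) in round and -2.07 and 0.00 in elongating spermatids, so the listing of both rests on short fragments.

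7SK was the one gene of the 6 whose values lay in polysomes. Its FPKM was 3685, 5343 and 4654 in pachytene spermatocytes, 4166, 6453 and 5198 in round spermatids, and 2784, 3627 and 4962 in elongating spermatids. It was listed in none of the 9 RNP libraries. The polysome values spanned 2.32 times from lowest to highest, the narrowest span of the 6 genes in the fraction where each was listed in all 9 libraries, and the 3 cell types overlapped.

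The fragments over 7SK covered nearly the whole gene in every polysome library. They were 312 to 327 nt long, began at bases 8 to 13 and ended at bases 324 to 335. All 9 had no strand assigned, so RNA of the opposite strand cannot be told apart. The nearest annotated gene, the long noncoding C920006O11Rik, starts 281 bases away on the other strand. Within 3000 bases of 7SK, other transcripts were listed in 7 of 9 RNP libraries and in 8 of 9 polysome libraries.

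Copies of 7SK elsewhere had values on the other side. The annotation names 331 genes 7SK, and 6 besides the member had a value: 3 in RNP libraries only and 3 in polysome libraries only. The polysome copies were each listed in 1 library, at an FPKM of 1.92, 3.25 and 1.23. The copy at chr2:23678573-23678747 was listed in 5 RNP libraries, with 69.4 in pachytene library 1, 7945 and 37813 in round libraries 2 and 3, and 26321 and 30098 in elongating libraries 1 and 3. In 4 of these 5 libraries nearly all of its value came from a fragment of 57 to 59 nt, of which 51 of 52 aligned bases matched bases 190 to 241 of the member. The copies at chr17:46540824-46541147 and chr10:50585881-50586170 reached 17320 and 4775, in 2 and 3 RNP libraries. RNA with the sequence of 7SK was thus listed in 6 of 9 RNP libraries, at copies and in pieces. The label of a gene held by polysomes applies to this position in the genome, not to 7SK sequence as a whole. FPKM of fragments this short, little longer than a read, cannot be set beside that of a fragment of full length.

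**Figure D1:**
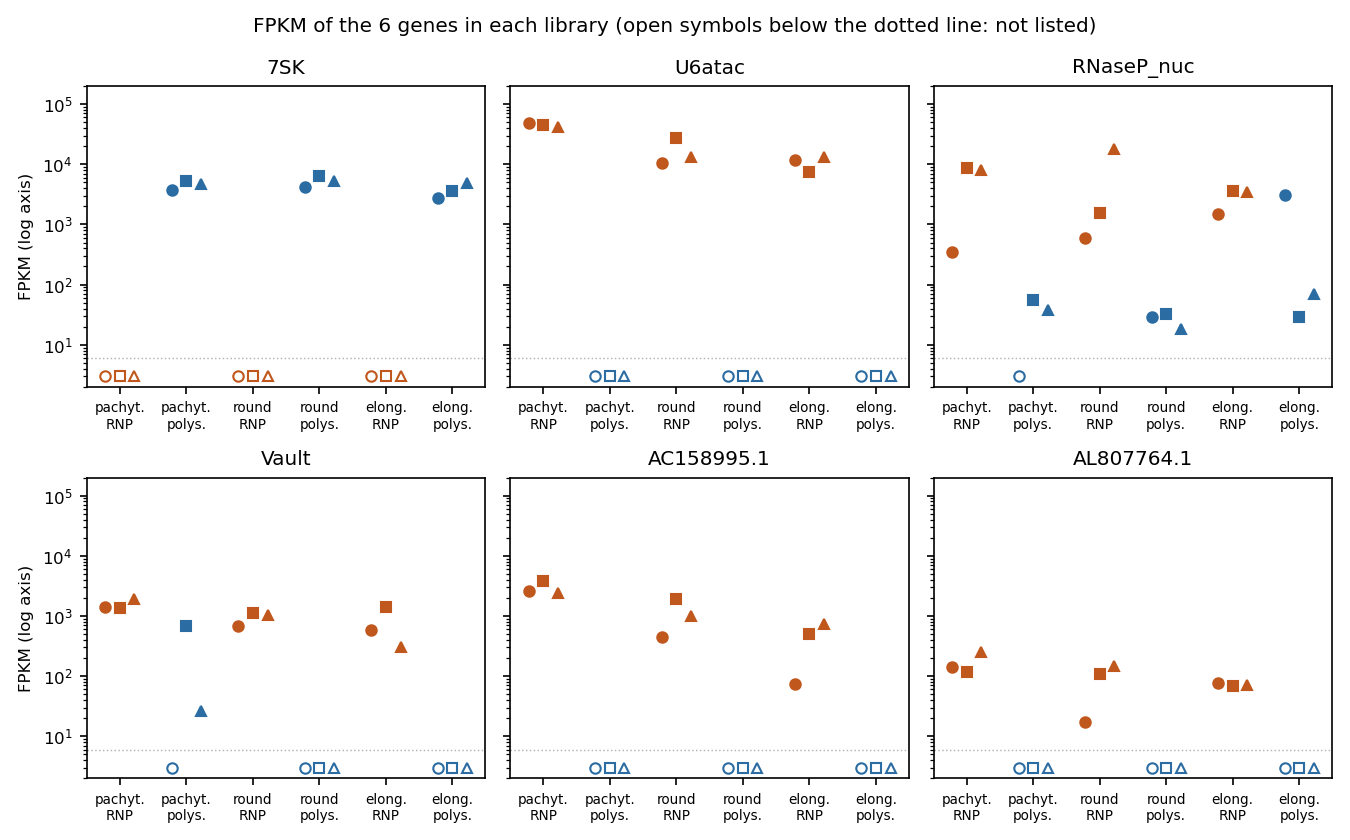
FPKM of the 6 genes (log axis) in the 3 libraries of each of the 6 groups; circles, squares and triangles are libraries 1, 2 and 3, orange is RNP and blue polysome, and open symbols below the dotted line are libraries in which the gene was not listed. 7SK has values in the 9 polysome libraries only and U6atac, AC158995.1 and AL807764.1 in the 9 RNP libraries only, while RNaseP_nuc and Vault have values in both.

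U6atac was listed in all 9 RNP libraries and in no polysome library. Its FPKM was 48155, 44282 and 42204 in pachytene spermatocytes, 10603, 27487 and 13270 in round spermatids, and 11780, 7564 and 13382 in elongating spermatids. The 3 pachytene libraries lay above all 6 spermatid libraries, and round and elongating spermatids overlapped. The mean was 44880 ± 3020 (SD, n = 3) in pachytene spermatocytes, 17120 ± 9077 in round and 10909 ± 3005 in elongating spermatids.

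Every U6atac fragment had the same edges. All 9 began at base 29 of the gene and ended at base 91 or 92, on the strand of the gene, and were 63 or 64 nt long. They thus lay past the letters AAGGAGA printed above. The gene lies inside the untranslated part of an exon of Gpr77, a receptor gene, on the same strand. Over the fragment, the copies on chromosomes 7 and 2 shared 62 of 63 aligned bases (98.4%), with 1 gap and no mismatch, so reads from there cannot be assigned to a copy with certainty.

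The copy of U6atac on chromosome 2 had values in both fractions. In RNPs it was listed in 9 of 9 libraries, at 383 to 4540 with a median of 826, and in polysomes in 4 of 9, at 1197, 454 and 19.9 in pachytene libraries 1, 2 and 3 and 71.1 in round library 2. Its fragments in RNPs were 128 to 151 nt long and covered nearly the whole copy, so its FPKM and that of the shorter fragment on chromosome 7 cannot be set beside each other as levels. Both genes were highest in the 3 pachytene RNP libraries. In polysomes U6atac sequence was therefore not wholly unlisted, and again the pattern belongs to the position. The names are those of the annotation, and which of the 2 copies makes U6atac RNA was not tested.

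RNaseP_nuc was listed in 9 of 9 RNP and 8 of 9 polysome libraries. In RNPs its FPKM was 349, 8745 and 7937 in pachytene spermatocytes, 602, 1560 and 17677 in round spermatids, and 1495, 3581 and 3477 in elongating spermatids. In polysomes it was 55.6 and 38.5 in pachytene libraries 2 and 3, 28.8, 33.0 and 18.2 in round spermatids, and 3032, 29.5 and 69.9 in elongating spermatids. Apart from one library, all polysome values lay below all RNP values. In elongating polysome library 1 the value was 3032, within the RNP range, and its fragment was 64 nt long against 155 to 266 nt in the other 7 polysome libraries that listed the gene. In round spermatids the mean was 248 times higher in RNPs (6613 ± 9593, SD, n = 3) than in polysomes (26.7 ± 7.61, n = 3), and 40.5 times without round RNP library 3. In elongating spermatids it was 2.73 times higher, and 57.4 times without polysome library 1. These libraries were left out after their values were seen.

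RNaseP_nuc has a relative that was listed in every library. AC027184.1, which resembles it, had a value in all 18 libraries, 13735 to 163555 in RNPs and 222 to 831 in polysomes. RNaseP_nuc stood at 1.48% to 16.3% of AC027184.1 in the RNP libraries, with a median of 7.14%. In the 7 polysome libraries other than elongating library 1 that listed it, the share was 3.97% to 16.5%. The assembled stretch of RNaseP_nuc, bases 17 to 230, shared 177 of 188 aligned bases (94.1%) with AC027184.1. The 2 genes share sequence, so reads of one may be counted for the other, and the level of RNaseP_nuc is uncertain. Fragments over AC027184.1 were 275 to 365 nt long. The name RNaseP_nuc comes from the annotation, and which of the 2 genes makes RNase P RNA was not tested. Of the 18 genes named RNaseP_nuc, 2 others were listed, both in RNP libraries only and at no more than 41.0.

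Vault (chr18:36961520-36961662, plus strand, 143 nt, 2206 bases from Zmat2) was listed in 9 of 9 RNP and 2 of 9 polysome libraries. In RNPs its FPKM was 1425, 1352 and 1886 in pachytene spermatocytes, 682, 1127 and 1049 in round spermatids, and 588, 1396 and 302 in elongating spermatids. The polysome values were 675 and 26.7, in pachytene libraries 2 and 3. Both lay below the RNP values of pachytene spermatocytes, and no polysome library of spermatids listed the gene. The other gene of this name was listed nowhere, although 130 of 142 aligned bases (91.5%) were the same.

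Fragments over Vault did not keep to the annotated gene. In RNPs they were 167 to 251 nt long and ran past its 3′ end in 9 of 9 libraries, with 55.8% to 71.9% of their length inside the gene. In 3 pachytene or round RNP libraries they also began before its 5′ end. With at least 90% of a fragment required inside the gene, no RNP library kept a value and pachytene polysome library 2 alone did, which turned the polysome minus RNP difference in pachytene spermatocytes from -5.86 to 3.13 on the log2(FPKM + 1) scale. The pattern of Vault thus rests on counting fragments that extend beyond the gene.

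**Figure D2:**
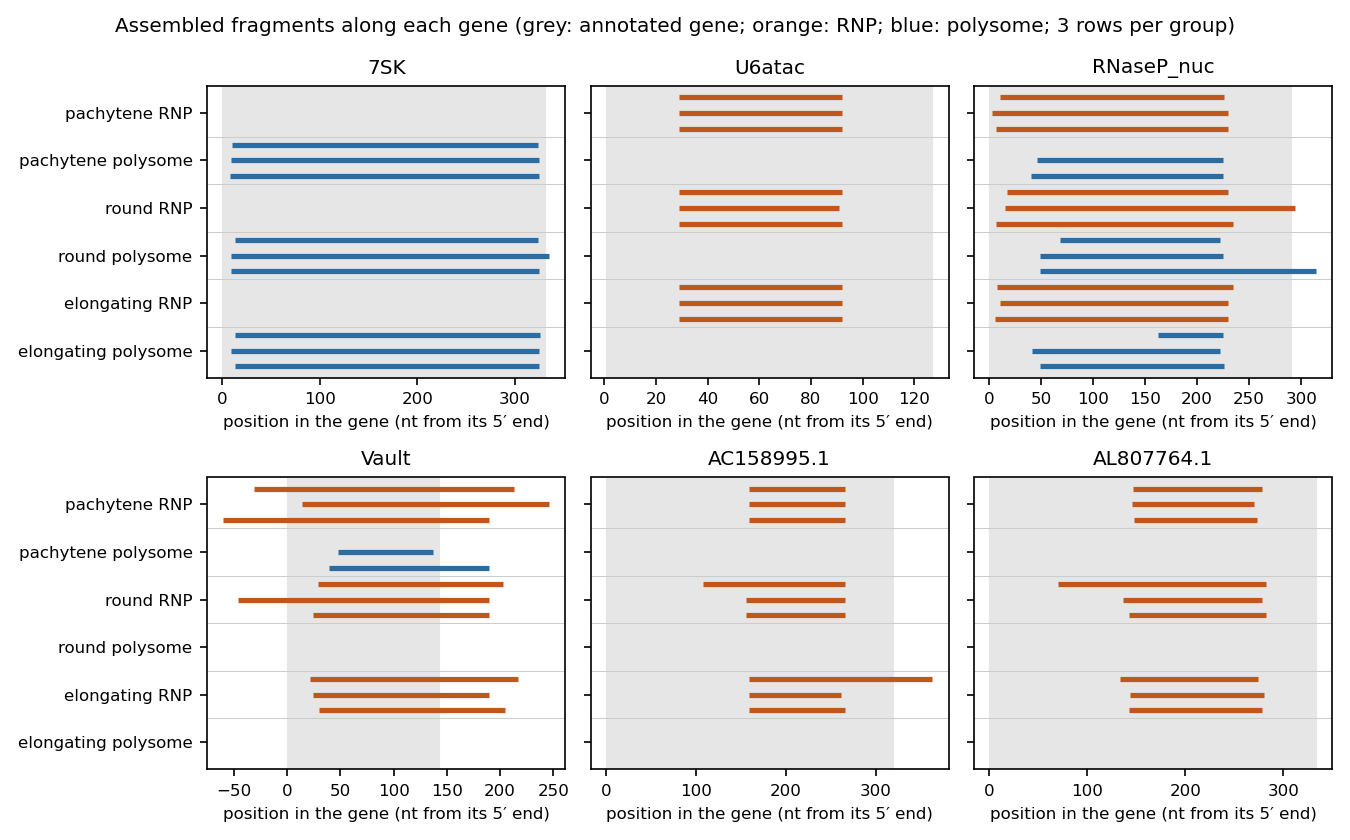
Counted fragments of each library along the 6 genes, in nt from the 5′ end of the gene, with the annotated gene in grey, RNP libraries in orange and polysome libraries in blue, 3 rows for each group. 7SK is covered from end to end, U6atac over bases 29 to 92 alone, and Vault fragments run beyond the 3′ end of the gene.

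AC158995.1 was listed in all 9 RNP libraries and in no polysome library. Its FPKM was 2556, 3813 and 2439 in pachytene spermatocytes, 443, 1903 and 979 in round spermatids, and 72.5, 492 and 725 in elongating spermatids. The mean went from 2936 ± 762 (SD, n = 3) in pachytene spermatocytes to 1108 ± 739 in round and 430 ± 331 in elongating spermatids. Pachytene spermatocytes lay above both spermatid groups, which overlapped each other. Its fragments were 103 to 205 nt long, none with a strand, and 7 of the 9 began within bases 156 to 159 and ended at base 261 or 266. The nearest annotated gene is a U6 gene, 6149 bases away.

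AL807764.1 was listed in the same 9 RNP libraries and in no polysome library. Its FPKM was 139, 119 and 248 in pachytene spermatocytes, 17.2, 109 and 147 in round spermatids, and 75.9, 68.6 and 70.1 in elongating spermatids. Pachytene and round spermatids overlapped, and the 3 elongating libraries lay close together, with a mean of 71.5 ± 3.86 (SD, n = 3). It lies in an intron of Ece1, the gene of an endothelin-converting enzyme, on the opposite strand. Its fragments had no strand, so RNA from the Ece1 intron cannot be told apart from RNA of this gene.

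The strand bears on 3 of the 6 genes. When only fragments on the strand of the gene were counted, 7SK, AC158995.1 and AL807764.1 had no value in any library, since none of their fragments had a strand. U6atac, RNaseP_nuc and Vault kept their values, since all of theirs did.

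**Figure D3:**
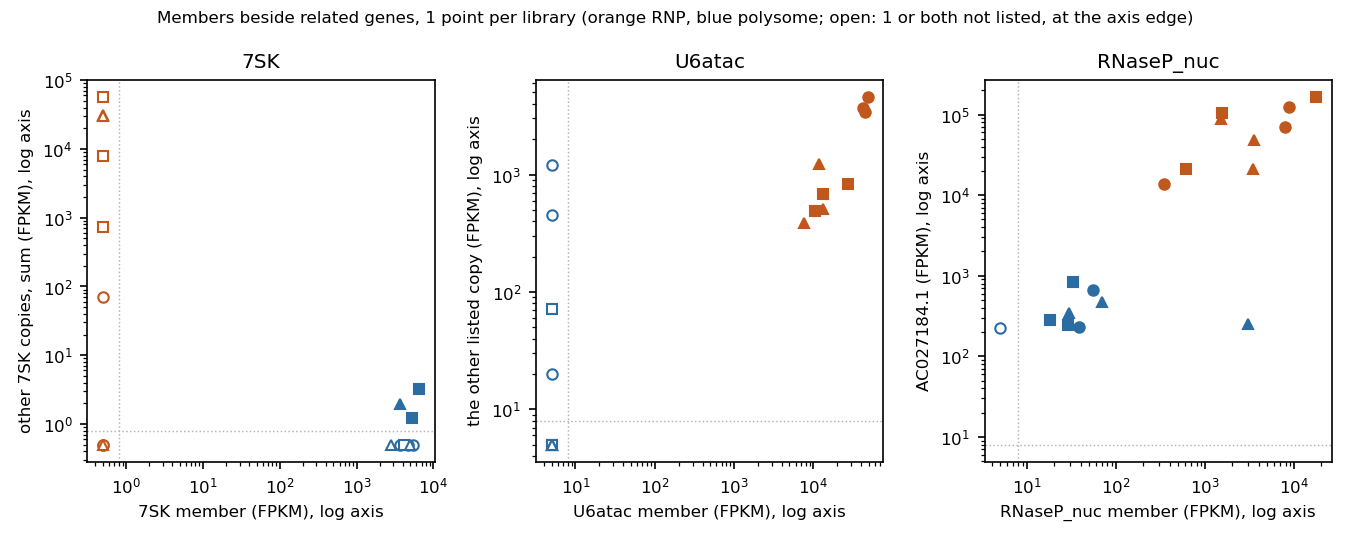
FPKM of 7SK, U6atac and RNaseP_nuc (horizontal log axes) against related genes in the same library (vertical log axes): the other 7SK copies summed, the chromosome 2 copy of U6atac, and AC027184.1. Circles are pachytene spermatocytes, squares round and triangles elongating spermatids, orange is RNP, blue polysome, and open points at the edges were not listed. Copies of 7SK reach 56300 in RNP libraries that do not list the member, and the 1 polysome library with 3032 for RNaseP_nuc has 250 for AC027184.1.

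Few genes of the annotation shared the pattern of these genes. A gene with several exons counts as listed where a transcript with one of its introns was assembled. Of 16307 genes, 5 were listed in all 9 RNP libraries and in no polysome library, and U6atac, AC158995.1 and AL807764.1 had the highest means among them, 24303, 1491 and 110. The others were the pseudogene Gm12041 at 28.6 and the long noncoding 1700003G18Rik at 4.68. The reverse, all 9 polysome libraries and no RNP library, held for 9 genes, and 7SK was the highest of them at a mean of 4541. The other 8 were protein-coding, from Klhdc2 at 150 to Ly6a at 1.72. Without both round libraries numbered 2, an alternative added after seeing the data, 5 genes had the first pattern and 19 the second, and U6atac and 7SK were still the highest of each.

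Of those 8 protein-coding genes, 5 are neighbours in 142 kb of chromosome 12 (chr12:70269801-70411674): Lrr1, 1110034A24Rik, Pole2, Klhdc1 and Klhdc2. Over this block the polysome libraries listed 9 to 17 spliced transcripts and the RNP libraries none. Single-exon fragments were listed there in both fractions, 0 to 36 in the RNP libraries and 2 to 21 in the polysome libraries. A 297-nt misc_RNA gene, AC099934.1, lies 9223 bases before the block and was listed in none of the 18 libraries. AC157822.1, of the same length and 50498 bases after the block, was listed in none either. The protein-coding genes of the block are named because they share the listing of 7SK, and where they are not listed they have no level either.

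Structured RNA genes as a group lay on the RNP side. With a library that does not list a gene counted as 0, all 25 genes besides the 6 had a higher mean FPKM in RNPs than in polysomes, also without both round libraries numbered 2 and after median-ratio scaling. Over listed libraries alone, 18 of the 20 genes with values in both fractions had the higher mean in RNPs, with a median ratio of 7.02 over the 20. The other 2 were the 5S gene n-R5s185 (7056 in 5 RNP and 8526 in 2 polysome libraries) and BX470216.1 (133 in 9 RNP libraries and 641 in 1 polysome library). None of the 25 was listed in polysomes alone, so among the 31 genes only 7SK had that pattern. Listing in RNPs alone held for 5 of the 25, among them U1, U4atac, a partner of U6atac in the minor spliceosome, and 2 copies of 7SK, but none of these was in all 9 RNP libraries. By the mean over 18 libraries, the 5 most abundant were AC027184.1 (means of 72891 in RNPs and 393 in polysomes), a pair of U4 genes (35499 and 6053, then 33300 and 3711), a Y_RNA gene (20166 and 347) and RNase_MRP (12769 and 6497), the RNA of a relative of RNase P. RNase_MRP was listed in all 18 libraries.

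**Figure D4:**
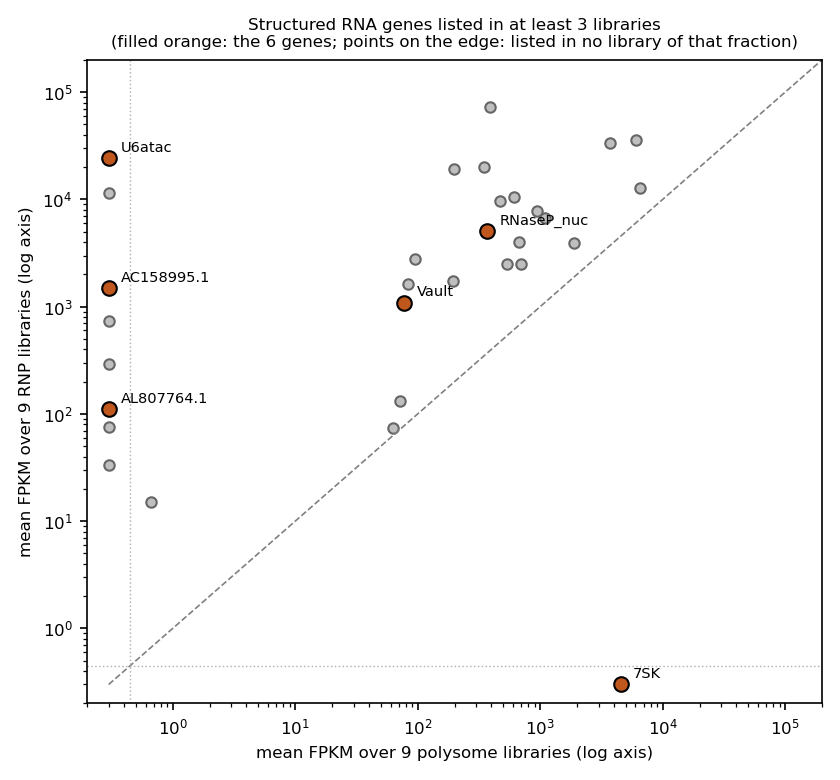
Mean FPKM over 9 RNP libraries against mean FPKM over 9 polysome libraries (both log axes) for the 31 single-exon snRNA, misc_RNA and rRNA genes listed in at least 3 libraries; filled orange points are the 6 genes, points at the edge are listed in no library of that fraction, means count libraries that do not list a gene as 0, and the dashed line marks equal means. 7SK is the only point below the line.

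The comparison of cell types within a fraction did not enter the choice of the genes, and it was tested with limma on log2(FPKM + 1) over 14665 genes, with Benjamini-Hochberg adjustment over all of them. None of the 6 genes passed an adjusted p of 0.05 in any of the 4 comparisons. Of all genes tested, 0% passed for round minus pachytene in RNPs (0 genes, with 661 at an unadjusted p under 0.05), 0.0818% for elongating minus round in RNPs, 0.157% for round minus pachytene in polysomes and 0.573% for elongating minus round in polysomes. With so few calls among all genes, the lack of calls among the 6 says nothing particular about them. With 3 libraries against 3, the exact permutation test of 1 gene cannot go below a two-sided p of 0.10.

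U6atac had the lowest unadjusted p of the 6 genes in these comparisons. Round minus pachytene was -1.51 on the log2(FPKM + 1) scale (SE 0.41, 95% interval -2.38 to -0.65, limma adjusted p = 0.688, unadjusted p = 0.00183), which is 2.85 times lower, and 0 of 9 pairs of libraries were higher in round spermatids. The exact permutation p was 0.10, the smallest this design allows. Without both round libraries numbered 2 the difference was -1.92 (limma adjusted p = 0.0600). In this fit, U6atac's zeros in polysomes enter the estimate of its spread. When the RNP libraries were fitted alone, an alternative added after seeing the data, the SE was 7.92. The SDs of U6atac in RNPs on the log2(FPKM + 1) scale were 0.10, 0.72 and 0.43 (pachytene, round, elongating). An SE of 7.92 lies far above these SDs, so it does not describe the spread between these libraries. From round to elongating spermatids the difference was -0.57 (SE 0.41, limma adjusted p = 0.694).

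AC158995.1 was lower in each later cell type, by values that did not pass the test. Round minus pachytene was -1.61 (SE 0.67, limma adjusted p = 1.0), and elongating minus round was -1.66 (SE 0.67, limma adjusted p = 0.533). Without both round libraries numbered 2 these were -2.12 and -1.15. Round and pachytene libraries did not overlap, with an exact permutation p of 0.10. In RNPs, Vault gave -0.72 (SE 1.42) for round minus pachytene, with groups that did not overlap, and -0.57 for elongating minus round. AL807764.1 gave -1.27 (SE 0.60) and 0.12, with overlap in both. RNaseP_nuc in RNPs gave -0.18 and 0.05, with SE of 1.78, and its libraries spanned 50.6 times. The share of all tested genes whose round and pachytene libraries do not overlap is not given here. The lack of overlap thus says nothing particular about U6atac, AC158995.1 or Vault.

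In polysomes, 7SK differed between cell types by values that did not pass the test. Round minus pachytene was 0.20 (SE 0.35, 95% interval -0.53 to 0.94, limma adjusted p = 0.988), and elongating minus round was -0.49 (SE 0.35, 95% interval -1.23 to 0.24, limma adjusted p = 0.475). Without both round libraries numbered 2 they were 0.05 and -0.34. The libraries of RNPs, where 7SK has no value, enter these errors too. The fit on the 9 polysome libraries alone gave an SE of 0.69 for both. The SDs of 7SK in polysomes on the log2(FPKM + 1) scale were below that, at 0.27, 0.32 and 0.42 (pachytene, round, elongating). RNaseP_nuc gave 1.04 and 2.80 (SE 1.78 for both), the second resting on the short fragment in elongating library 1. Vault gave -4.73 for round minus pachytene (SE 1.42, limma adjusted p = 0.312), a value that depends on the pseudocount because no round polysome library listed it. Without pachytene polysome library 1, which did not list Vault, its difference was -7.10 (limma adjusted p = 0.00317).

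The proteins that bind these RNAs were measured through their mRNAs, in lists of 47 genes for the 7SK, RNase P and MRP, vault, minor spliceosome and U6 particles, of which 44 were tested. The lists come from what is generally known of each particle. In the 4 comparisons of cell types none of the 44 passed (limma, 2 to 5 of them at an unadjusted p under 0.05). Between fractions, 2 of 44 (4.55%) passed in pachytene spermatocytes, against 6.34% of all genes, and none in round (0.327% of all genes, 4 of the 44 at an unadjusted p under 0.05) or elongating spermatids (1.60% of all genes, 9 of the 44). Both were higher in polysomes and belong to the U6 and tri-snRNP list. Lsm4, a subunit of the ring on the 3′ end of U6 RNAs, had FPKM of 41.4, 27.5 and 22.1 in RNPs and 80.3, 119 and 66.7 in polysomes (difference 1.52, SE 0.40, limma adjusted p = 0.0401). Nhp2l1, which binds U4 and U4atac, was not listed in RNP library 1, had 24.4 and 18.7 in the others and 69.0, 108 and 51.5 in polysomes (difference 3.22, SE 0.82, limma adjusted p = 0.0380). That difference counts RNP library 1 as 0, and without this library it was 1.72 (limma adjusted p = 0.0171). With a pseudocount of 0.1 Nhp2l1 was not called (limma adjusted p = 0.0605). After median-ratio scaling of the libraries neither passed, with differences of 0.37 and 2.13 (limma adjusted p = 0.872 and 0.634). Of 18 fits that each left out 1 library, 7 called Lsm4 and 8 called Nhp2l1 (limma adjusted p of 0.0214 to 0.172 and 0.0171 to 0.101).

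The mRNAs of these lists lay near all genes. The median polysome minus RNP difference of the 44 was 1.22 in pachytene spermatocytes, 0.52 in round and 0.85 in elongating spermatids, beside 1.01, 0.65 and 0.71 for all genes tested. Scaling moved those medians of all genes to 0.18, 0.07 and 0.02, so differences are read against these shifts. All 9 genes of the 7SK list had a positive difference in pachytene spermatocytes, with a median of 1.41, or 0.43 after scaling. Before scaling, so had 9 of 9 in the minor spliceosome list and 12 of 14 in the U6 and tri-snRNP list. In the RNase P and MRP list it was 8 of 9, and in the vault list 2 of 3. The share of all tested genes with a positive difference is not given here, so these counts say nothing particular about the 7SK list. Larp7, which binds the 3′ end of 7SK, was the most abundant gene of the 7SK list. It was at 81.7 ± 54.6 in RNPs and 262 ± 116 in polysomes of pachytene spermatocytes (SD, n = 3). The 9 tested genes of the RNase P and MRP list had a median of 0.90 there, and -0.05 after scaling. Mvp, the main protein of the vault shell, had 5.13 in pachytene RNP library 2, was not listed in the other two, and was at 1.48, 5.84 and 6.78 in pachytene polysomes. It was at or below 6.78 in all 18 libraries. The minor spliceosome list had a median of 1.48 in pachytene spermatocytes and 0.30 in round spermatids, or 0.55 and 0.07 after scaling. Zcrb1, a subunit of the U11/U12 particle, had 14.5 ± 4.27 in RNPs and 43.5 ± 16.3 in polysomes of pachytene spermatocytes.

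The genes most alike across the 18 libraries were those with the same listing. For 7SK they were 1110034A24Rik, Klhdc2 and Ly6a (Pearson's r of 0.99, 0.98 and 0.97 on log2(FPKM + 1)). For U6atac they were AL807764.1 (0.99), AC158995.1 (0.99) and 1700003G18Rik (0.97). For AC158995.1 and for AL807764.1 the other and U6atac came first, at 0.98 to 0.99, and AC027184.1 next, at 0.94 and 0.96. Vault was closest to U6atac (0.88), Telomerase-vert, the telomerase RNA (0.88), and AC027184.1 (0.87), and RNaseP_nuc to Rbmxl2 (0.84), AC027184.1 (0.83) and Gm12041 (0.81). The points share libraries and fractions, and most of each value reflects which fraction lists the gene.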

How the data were processed

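Large RNA of RNP and polysome fractions was sequenced by the authors from a strand-specific total RNA kit. The study names single-end runs at UT Southwestern Medical Center and paired-end runs at BGI, but not which library was run where. Centre and run type could therefore not be compared between libraries. Per the labels' processing notes and the study's methods, reads were mapped to mm9 with TopHat and assembled with Cufflinks, for each library apart. Versions are not given in the sources used here. The deposited values are FPKM of assembled transcripts, with no read counts, so depth is unknown and the number of libraries limits the precision. An FPKM above 0 needs an assembled fragment, and short fragments near the read length get large values.

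The FPKM of a single-exon gene was summed over single-exon transcripts with at least 50% of their length in its exon, on its strand or without strand. That of a gene with several exons was summed over spliced transcripts, each given to the gene with which it shares the most introns. RNaseP_nuc and Vault were taken at the 1 copy of the name listed in at least 3 libraries. Groups came from the sample titles. Genes that reached an FPKM of 1 in 3 libraries or more entered the test, made with limma 3.58.1 (R 4.3.3) on log2(FPKM + 1), with trend, 6 groups, 18 libraries and Benjamini-Hochberg adjustment, called at an adjusted p under 0.05. Fold changes are on that scale and understate those of low genes. The fit was tested on simulated data. Tables, sequences and alignments used Python 3.11.15, numpy 2.4.6, scipy 1.17.1, pandas 2.3.3, pysam 0.24.0 and blastn 2.17.0+. Gene names and positions are from GENCODE vM1. The 5′ ends of AC158995.1 and AL807764.1 are not reported here.

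The genes and lists were chosen with earlier results of these data known. Named besides the 6 genes were their copies, the 3 genes most correlated with each, the 5 most abundant structured RNA genes, and, of each protein list, the genes called or else those highest in FPKM. C920006O11Rik, Gpr77, Ece1, Zmat2, Parp2, AC099934.1, AC157822.1 and the genes with the same listing were named after their values or positions were seen. Replicate numbers come from the titles and do not name a shared mouse. Deviations of same-numbered libraries correlated above 0.1 in every pair for polysome minus RNP in round spermatids (at least 0.2032) and for round minus pachytene in RNPs (at least 0.1178), and not in the other 5 comparisons. Alternatives were the pseudocount, the filter, median-ratio scaling, a replicate block, each library left out, both round libraries numbered 2 left out and 4 ways to count fragments.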

Additional observations from a re-analysis of the deposited data

How the results depend on the processing

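Counts of called genes depended on the settings. Median-ratio scaling gave 27, 26 and 68 genes between fractions (pachytene, round, elongating) in place of 930, 48 and 234, and 60, 14 and 43 in place of 12 (RNPs, elongating minus round), 23 (polysomes, round minus pachytene) and 84 (polysomes, elongating minus round). Without both round libraries numbered 2 the counts between fractions were 2584, 100 and 737, round minus pachytene gave 13 (RNPs) and 97 (polysomes), and elongating minus round in polysomes gave 39. A pseudocount of 0.1 gave 364 between fractions in elongating spermatids and 30 for elongating minus round in RNPs. A minimum FPKM of 5 gave 3 there, 12 for round minus pachytene in polysomes and 14 for elongating minus round in polysomes, and no filter gave 43 for round minus pachytene in polysomes. Fits on the 9 libraries of a fraction, chosen after seeing the data, gave 2 and 29 in RNPs and 10 and 46 in polysomes. Leaving out 1 library of the groups compared gave 31 (RNP 3) to 1573 (RNP 1) genes in pachytene, 17 (RNP 3) to 97 (polysome 2) in round and 42 (RNP 2) to 194 (RNP 3) in elongating cells between fractions, 0 to 4 (round 2) and 3 (round 3) to 26 (elongating 2) between cell types in RNPs, and 4 (round 3) to 56 (round 2) and 5 (round 3) to 349 (round 1) in polysomes. Libraries of other groups enter the fit as well, and leaving out any 1 of the 18 gave up to 1600 (round polysome 2) between fractions in pachytene spermatocytes and 534 (pachytene RNP 3) in elongating spermatids. The causes were not tested.

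With a replicate block the numbered pairs gave 1769 genes between fractions in pachytene spermatocytes, 469 in elongating spermatids, 61 for elongating minus round in RNPs and 631 in polysomes. Where the pairing check was met, the block gave 56 genes between fractions in round spermatids and 0 for round minus pachytene in RNPs. No call among the 6 genes changed with the block.

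Of 255 alternative values of the 6 genes between cell types, 1 was called, that of Vault without pachytene polysome library 1. RNaseP_nuc turned in RNPs to 0.17 and -0.30 without both round libraries numbered 2, and ran from -1.71 to 0.86 and from -0.99 to 1.45 with 1 library left out. In polysomes its round minus pachytene ran from -0.81 (without pachytene library 1) to 2.10, and elongating minus round of AL807764.1 ran from -0.82 (without round RNP library 1) to 0.69. When any fragment over at least 50% of the gene was counted, AC158995.1 and AL807764.1 lost most or all of their difference between fractions. Round minus pachytene became -6.43 for U6atac and 1.40 for AL807764.1. Elongating minus round became 4.35 for U6atac, 2.07 for AC158995.1, -1.40 for AL807764.1 and -1.06 for RNaseP_nuc in polysomes. The U6atac values turn on 1 library. Its fragment in round RNP library 2 was 63 nt long, under 50% of the 127-nt gene, and counted as 0. The 64-nt fragments of the other RNP libraries were kept. AL807764.1 kept round RNP library 1 alone, and AC158995.1 elongating RNP library 1 alone. With 90% of a fragment required inside the gene, Vault became 3.13 between fractions in pachytene spermatocytes.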
